A study of Capra hircus with 2 samples.

Results

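miR-143 and miR-145 are a pair of microRNAs (miRNAs) made from neighbouring precursors, and their reads in the mammary gland of dairy goats were compared between 2 stages, the dry period and peak lactation. They are 2 of the 346 conserved miRNAs listed by the study. A sequenced tag was counted for a miRNA when it was identical to the listed sequence over 18 nt or more, starting at the 5′ end, whatever its 3′ end, and each tag was given to the miRNA with the longest match, or to each of them where matches were equal. No tag of miR-143 or miR-145 was shared with another name. Both stages were sampled from Xinong Saanen dairy goats (Capra hircus). Mammary tissue of 3 goats was pooled at each stage and each pool gave 1 small RNA library, so each stage is represented by 1 library. The sample labels read 75 days after lambing for the dry period and 320 days for peak lactation. The paper has these days the other way round, and the protocol text of the labels names a further day. The stages were taken from the titles of the samples, and the clean read totals of the files are those that the study lists for the stages so named. With 1 library per stage there is no test between stages, and no p-value is given. The intervals are 95% intervals that cover the sampling of reads alone, without differences between goats or library preparations.

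miRNAs are cut from hairpin precursors, in which Dicer releases a duplex of the 5′ arm (5p) and the 3′ arm (3p). One strand of the duplex is usually kept by an Argonaute protein, and its bases 2 to 8, the seed, pair with target mRNAs. miR-143 and miR-145 are known as a cluster made from a common primary transcript, which is abundant in smooth muscle and is switched on there by serum response factor and myocardin. In the mammary gland, smooth muscle lies in vessel walls and the contractile myoepithelial cells surround the alveoli. Only small RNA was sequenced, so the smooth muscle label could not be checked against muscle mRNAs. In bulk tissue, fewer cells of a type and less RNA per cell cannot be told apart.

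The listed miRNAs and the goat precursors are shown because every comparison concerns one of their arms or ends. In the listed miRNAs the seed is in capitals.
miR-143: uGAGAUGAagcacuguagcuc
miR-145: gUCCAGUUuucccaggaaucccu
miR-143 has 21 nt and a GC content of 47.6%, and miR-145 has 23 nt and 52.2%. Their seeds differ, and 0 of the other conserved miRNAs share either of them.

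In the precursors sequenced by the study from goat, the listed miRNA is in capitals.
miR-143 precursor: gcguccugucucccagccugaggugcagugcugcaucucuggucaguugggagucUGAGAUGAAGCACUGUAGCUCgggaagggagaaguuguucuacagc
miR-145 precursor: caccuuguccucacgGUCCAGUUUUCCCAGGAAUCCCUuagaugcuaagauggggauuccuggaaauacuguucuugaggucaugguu
miR-143 occupies positions 56 to 76 of a precursor of 101 nt, and thus its 3′ arm. miR-145 occupies positions 16 to 38 of a precursor of 88 nt, and thus its 5′ arm. The goat annotation of RefSeq (assembly ARS1.2) lists MIR145 and MIR143 next to each other, with CSNK1A1 beyond MIR145 and IL17B beyond MIR143, and gives both the same lengths as these precursors. The deposited files name no genome build, so no coordinates are given.

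Sequencing depth was 14851375 clean reads in the first library, dry period, and 15712891 in the second, peak lactation. Conserved miRNAs took 61.1% of the clean reads at the first stage and 14.4% at the second, and reads of 21 to 23 nt took 73.3% and 41.2%. Counts were scaled to 1000000 clean reads (RPM), the scale used by the study, on which 3 reads amounted to 0.202 RPM during the dry period and 0.191 RPM at peak lactation. The fall in the share of all miRNA reads enters every ratio on this scale. Ratios are therefore also given on other scales and against the median of all miRNAs, and the part of this fall in the level of either miRNA was not tested.

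Both miRNAs were abundant, and both were lower at peak lactation per clean read, although miR-143 was higher on 4 of the 6 scales described next. miR-143 had 126896 reads in the dry period library, or 8544 RPM (interval 8498 to 8591), and 74024 reads at peak lactation, or 4711 RPM (4677 to 4745). miR-145 had 49030 reads or 3301 RPM (3272 to 3331) during the dry period and 7673 reads or 488 RPM (478 to 499) at peak lactation. Each miRNA was read whole, so reads were compared without a correction for length. miR-143 ranked 10 among the 346 conserved miRNAs in the dry period library and 5 at peak lactation, while miR-145 ranked 21 and 35. Of all conserved miRNA reads, miR-143 held 1.40% during the dry period and 3.27% at peak lactation. The same share was 0.540% and 0.339% for miR-145.

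**Figure D1:**
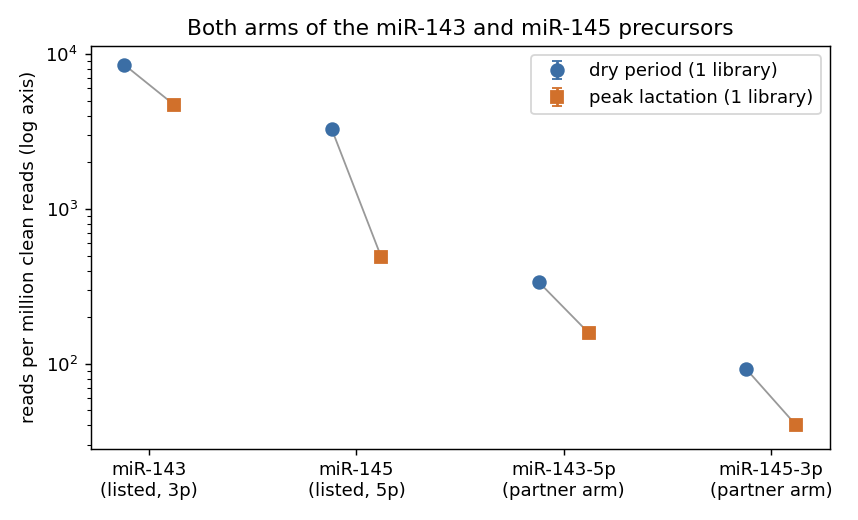
Reads per 1000000 clean reads (log axis) of miR-143, miR-145 and the partner arms of their precursors in the dry period library (circles) and the peak lactation library (squares), with 95% counting intervals that are mostly smaller than the points. The line of miR-145 drops from 3301 to 488 RPM on this scale and is much steeper than those of miR-143 (8544 to 4711) and of both partner arms, 3 lines that would rise if scaled to all conserved miRNA reads.

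The mates differed in the size of the change. The log2 ratio of peak lactation over dry period was -0.86 for miR-143 (interval -0.87 to -0.85), or a level 0.551 times that of the dry period. It was -2.76 for miR-145 (-2.79 to -2.72), or 0.148 times. For 1 read of miR-145, 2.59 reads of miR-143 were sequenced in the dry period library (2.56 to 2.62) and 9.65 at peak lactation (9.42 to 9.88). This ratio of the mates is free of any scaling of the libraries, and their log2 ratios differed by 1.90 (1.86 to 1.94), which is 3.73-fold. The intervals of the mates lay far apart, but 1 pooled library per stage does not show the spread between goats. The paper also measured miR-145, but not miR-143, by quantitative RT-PCR over the stages, with error bars from biological replicates. Those values are not used here.

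The direction for miR-143 depended on the scale, whereas miR-145 was lower at peak lactation on all 6 scales. Divided by reads of 21 to 23 nt, the log2 ratio was -0.03 for miR-143 and -1.93 for miR-145. Divided by all conserved miRNA reads it was 1.23 for miR-143 and -0.67 for miR-145, a scale on which let-7 and miR-98 took all but 2164419 of 9081514 reads in the dry period library. Without let-7 and miR-98 in the divisor it was 0.27 and -1.62. With the TMM factors of edgeR it was 0.44 and -1.46, and with the size factors of DESeq2 0.54 and -1.36. These scales raised the median log2 ratio of all miRNAs by 0.83 to 2.08 relative to clean reads. Relative to that median, miR-143 stood at 0.58 and miR-145 at -1.32 on each of them.

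Among the 257 conserved miRNAs with at least 1 RPM in a library, the median log2 ratio was -1.44 on the scale of clean reads, with quartiles of -2.15 and -0.92. A miRNA was counted as changed past a log2 ratio of 1 in size, without a test. On the scale of clean reads 181 of the 257 miRNAs (70.4%) were lower past this limit, against 1 of the 2 members, miR-145, and 3 (1.17%) were higher, against 0 members. These numbers count 8 names that share all their tags with another, and with such names counted once 177 of 253 were lower and 3 higher. A lower level of miR-145 was thus the common direction, but 32 miRNAs had a lower ratio than miR-145 and 56 a higher one than miR-143. On the scale of all conserved miRNA reads 19 miRNAs (7.39%) were lower past the limit and 93 (36.2%) were higher, with miR-143 among the latter and miR-145 past neither limit. Of the 77 miRNAs with at least 1000 reads in both libraries, 8 had a lower ratio than miR-145 and 19 a higher one than miR-143.

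**Figure D2:**
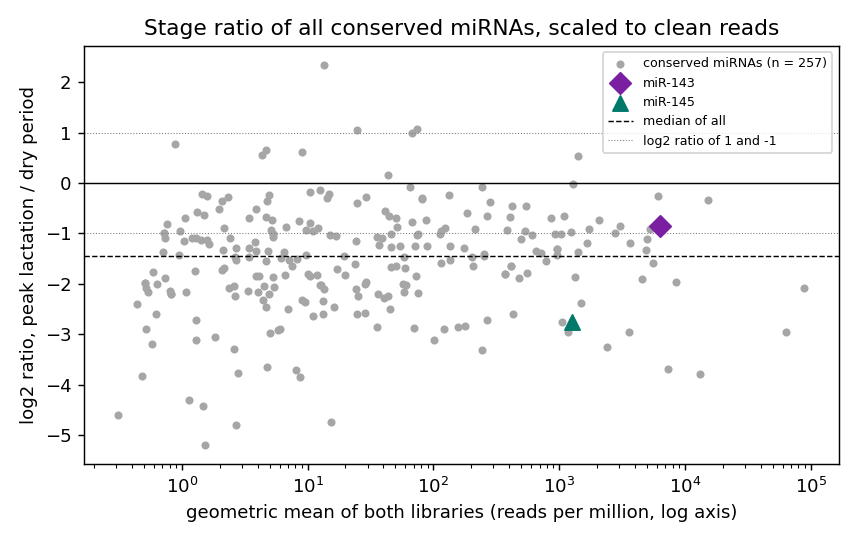
The log2 ratio of peak lactation over dry period, scaled to clean reads, against the geometric mean RPM of both libraries (log axis) for 257 conserved miRNAs (grey), with miR-143 (diamond), miR-145 (triangle) and the median of all (dashed). miR-143 lies above the median of -1.44 and miR-145 below it, and scaling to all conserved miRNA reads would raise every point by 2.08 and put miR-143 above 0.

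The partner arms of the precursors had log2 ratios much closer to each other than those of the listed arms. The most abundant tags of each partner arm are shown because they give the start of the strand that the listed miRNA pairs with in the duplex, with bases 2 to 8 in capitals. The last U of the 22 nt tag of miR-145-3p does not match the precursor.
miR-143-5p, 19 nt: gGUGCAGUgcugcaucucu
miR-143-5p, 18 nt: gGUGCAGUgcugcaucuc
miR-143-5p, 21 nt: gGUGCAGUgcugcaucucugg
miR-145-3p, 21 nt: aUUCCUGGaaauacuguucuu
miR-145-3p, 20 nt: aUUCCUGGaaauacuguucu
miR-145-3p, 22 nt: aUUCCUGGaaauacuguucuuu
The 3 tags of miR-143-5p had 3147, 681 and 329 reads during the dry period and 1498, 340 and 184 at peak lactation, in the order shown. Those of miR-145-3p had 590, 325 and 119 reads during the dry period and 264, 126 and 60 at peak lactation.

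Over all its tags, miR-143-5p had 4995 reads or 336 RPM (327 to 346) during the dry period and 2488 reads or 158 RPM (152 to 165) at peak lactation, a log2 ratio of -1.09 (-1.16 to -1.02). miR-145-3p had 1373 reads or 92.4 RPM (87.7 to 97.5) and 632 reads or 40.2 RPM (37.2 to 43.5), a log2 ratio of -1.20 (-1.34 to -1.06). The ratios of the partner arms differed from each other by 0.11 (-0.04 to 0.27), an interval that includes 0, while those of the listed arms differed by 1.90. On the scale of all conserved miRNA reads, which adds 2.08 to each, the ratios of both partner arms turn positive.

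Within the miR-145 precursor the balance of the arms moved. The dry period library held 35.7 reads of miR-145 for each read of its partner arm and the peak lactation library 12.1, so that the partner made up 2.72% of the reads of both arms during the dry period and 7.61% at peak lactation. The log2 ratio of the partner arm exceeded that of miR-145 by 1.56 (1.42 to 1.70). In the miR-143 precursor the corresponding numbers were 25.4 and 29.8 reads of miR-143 for each partner read, and the partner arm was lower by 0.23 relative to miR-143 (-0.23, interval -0.30 to -0.16). These differences within a precursor do not depend on the scaling.

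Of the 15 other miRNAs with reads on the partner arm of a sequenced goat precursor, only miR-25 and miR-199a-3p had at least 100 such reads in both libraries. The partner arm of miR-25 differed from miR-25 by -0.08 (-0.32 to 0.15), although miR-25 itself had nearly the log2 ratio of miR-145 (-2.75). The partner arm of miR-199a-3p exceeded the listed arm by 0.70 (0.52 to 0.88). Reads elsewhere on the precursors were rare, with 1 read during the dry period and 4 at peak lactation for miR-143, and 1 and 0 for miR-145. For miR-145 at peak lactation, a count of 0 allows up to 0.191 RPM.

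The 3′ ends of the 2 miRNAs differed from each other more than they differed between stages. The leading end variants are shown because they carry most of the reads of each miRNA. Capitals mark bases at the 3′ end that do not match the precursor, called a tail here.
miR-143, listed end: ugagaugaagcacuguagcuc
miR-143, 1 nt shorter: ugagaugaagcacuguagcu
miR-143, U tail: ugagaugaagcacuguagcucU
miR-143, 1 nt shorter with A tail: ugagaugaagcacuguagcuA
miR-145, listed end: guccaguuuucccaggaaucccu
miR-145, 2 nt shorter: guccaguuuucccaggaaucc
miR-145, 1 nt shorter: guccaguuuucccaggaauccc
miR-145, 4 nt shorter: guccaguuuucccaggaau
miR-145, 3 nt shorter with A tail: guccaguuuucccaggaaucA
The reads of miR-143 were spread over 356 unique tags during the dry period and 326 at peak lactation, and those of miR-145 over 182 and 88.

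Most reads of miR-143 ended at 2 neighbouring positions. Without a tail, the listed end held 45422 reads or 35.8% (35.5 to 36.1) of miR-143 during the dry period and 27672 reads or 37.4% (37.0 to 37.7) at peak lactation. The end 1 nt shorter held 39661 reads or 31.3% and 20587 reads or 27.8%. This was the largest shift of an untailed end of miR-143. Shares of the end 2 nt shorter were 3.10% during the dry period and 2.30% at peak lactation, and those of the end 1 nt longer 0.693% and 0.809%. Reads of miR-143 of 18 to 20 nt made up 37.7% during the dry period and 32.8% at peak lactation, while such short reads made up 16.4% of the whole dry period library and 27.1% of the other. Mean lengths of miR-143 were 20.8 and 20.9 nt.

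Reads of miR-145 ended at more positions. Its listed end without a tail held 15170 reads or 30.9% (30.5 to 31.4) during the dry period and 2368 reads or 30.9% (29.8 to 31.9) at peak lactation. The end 2 nt shorter held 8705 reads or 17.8% and 966 reads or 12.6%, the end 1 nt shorter 17.0% and 15.8%, and the end 4 nt shorter 11.4% and 13.3%. The end 3 nt shorter was less used without a tail, at 3.28% during the dry period and 4.37% at peak lactation. The end 1 nt longer held 2.69% and 3.35%. Reads of 18 to 20 nt made up 18.2% of miR-145 in the dry period library and 21.2% at peak lactation, a change opposite in sign to that of miR-143, while the mean length of miR-145 was 21.7 nt in both.

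**Figure D3:**
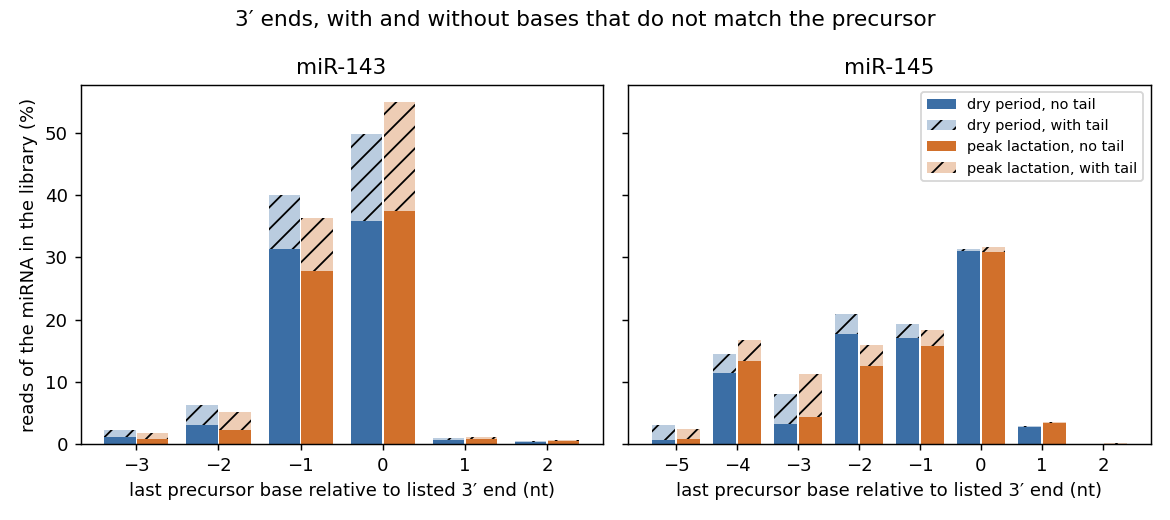
Share of the reads of miR-143 (left) and miR-145 (right) by the last base that matches the precursor, counted in nt from the listed 3′ end, during the dry period and peak lactation libraries (1 each), with the untailed part solid and the tailed part hatched. miR-143 ends mainly at the listed end and 1 nt before it, whereas miR-145 is spread over 5 positions, and the untailed end of miR-145 2 nt before the listed end is the one that differs most between the libraries (17.8% and 12.6%).

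The difference between the mates was present in each tag with at least 100 reads in both libraries. miR-143 had 23 tags with at least 100 reads in both libraries, which held 98.0% of its reads in each, and their log2 ratios on the scale of clean reads ran from -1.54 to -0.14 with a median of -0.82. miR-145 had 9 such tags with 90.6% of its reads in each library, and their log2 ratios ran from -3.25 to -2.06 with a median of -2.53. The 2 ranges did not overlap, but tags of a miRNA come from the same 2 libraries and are not replicates. Among these tags of miR-145, the 2 nt shorter tag had the lowest ratio, -3.25. The 3 nt shorter tag with an A tail had the highest, -2.06, with 1787 reads during the dry period and 452 at peak lactation. The 5 nt shorter tag with an A tail missed the limit of 100 reads. It had 691 reads during the dry period and 76 at peak lactation, a log2 ratio of -3.27.

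Tails were common on both miRNAs and differed in kind. How the tail bases arose was not tested. Tailed reads made up 27.7% of miR-143 (27.5 to 27.9) during the dry period and 30.4% (30.1 to 30.7) at peak lactation. For miR-145 they made up 16.2% (15.9 to 16.5) and 18.9% (18.01 to 19.8). Tails of U alone were found on 14.0% of miR-143 reads during the dry period (13.8 to 14.2) and 16.7% at peak lactation (16.4 to 17.0), and tails of A alone on 11.4% and 11.2%. On miR-145, tails of A alone were found on 12.7% (12.4 to 13.0) and 15.7% (14.9 to 16.5), and tails of U alone on 1.18% and 0.977%. Among the tails that could be recognised, the larger tailed share at peak lactation thus came with U tails for miR-143 and with A tails for miR-145. At some ends, among them the listed end of miR-145, an added U could not be told from a longer end. The part of this limit in the contrast was not tested.

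The tail depended on the position of the end. At the listed end of miR-143, 24.96% of reads during the dry period and 28.0% at peak lactation carried a tail that was U alone, against 1.96% and 2.21% with A alone. The reads 1 nt shorter carried mainly A, on 16.8% and 18.5%, against U on 2.58% and 2.21%. The tag of the listed end with 1 added U had 14118 reads during the dry period and 10337 at peak lactation, a log2 ratio of -0.53 on the scale of clean reads, against -0.80 for the same end without a tail. Both values would lie above 0 on the scale of all conserved miRNA reads, which adds 2.08 to each.

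On miR-145 the reads that ended 4, 3 and 2 nt before the listed end had C as the next base of the precursor, so an added A or U could be recognised. A tails were found on 15.3%, 49.5% and 12.4% of these reads during the dry period and on 15.5%, 55.1% and 18.7% at peak lactation. U tails were found on 1.45%, 5.73% and 1.66% during the dry period and on 1.40%, 2.54% and 1.39% at peak lactation. A tails exceeded U tails at all 3 ends in both libraries. At the listed end of miR-145, and 1 and 5 nt before it, the next precursor base is U, so an added U there could not be told from a longer end. The same holds for miR-143 reads that ended 2 nt before the listed end.

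**Figure D4:**
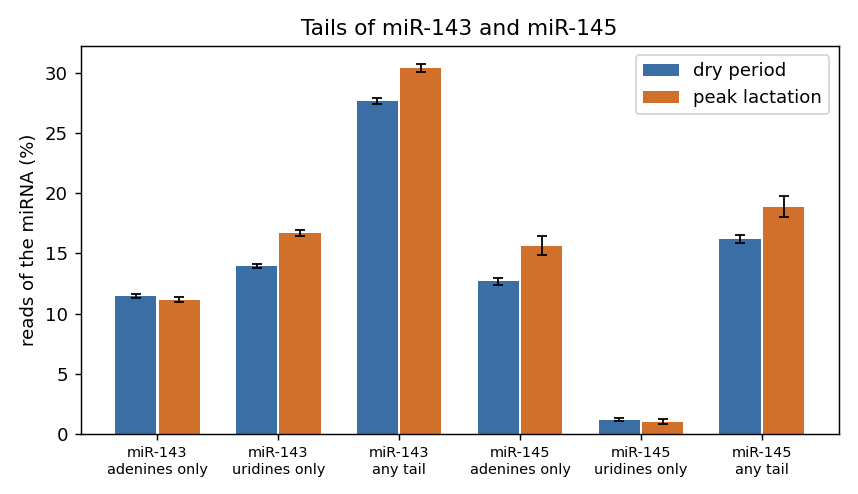
Share of the reads of miR-143 and miR-145 with a tail of adenines only, of uridines only or of any kind during the dry period and peak lactation libraries (1 each), with 95% Wilson intervals. Uridine tails of miR-143 go from 14.0% to 16.7% and adenine tails of miR-145 from 12.7% to 15.7%, while uridine tails stay near 1% on miR-145, where some of them cannot be seen.

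The tailed share was larger at peak lactation by 2.70 percentage points for miR-143 and by 2.68 for miR-145. The other 12 miRNAs with a goat precursor and at least 1000 reads in both libraries changed by -2.62 to 8.80 points, with a median of 1.18, and 10 of them were higher at peak lactation. Their tailed shares had a median of 14.0% during the dry period (range 5.33% to 34.6%) and 14.7% at peak lactation (6.46% to 43.4%). The share of miR-143 was about 2 times these medians and that of miR-145 near them. miR-181b (34.6% and 43.4%) and let-7i (28.2% and 30.5%) had larger shares than miR-143 in both libraries.

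The 5′ ends, which set the seed, were more uniform than the 3′ ends. Of the reads of the miR-143 arm with a start within 5 nt, 98.7% began at the listed base during the dry period and 98.9% at peak lactation. For miR-145 these shares were 99.7% and 99.6%. Starts elsewhere thus held 1.28% and 1.15% of the miR-143 arm and 0.279% and 0.389% of the miR-145 arm. The leading tags with another start are shown because each has a seed of its own, in capitals.
miR-143, 2 nt later: aGAUGAAGcacuguagcucggu
miR-143, 1 nt earlier: cUGAGAUGaagcacuguagcu
miR-143, 2 nt earlier: uCUGAGAUgaagcacuguagcu
miR-145, 1 nt later: uCCAGUUUucccaggaaucccu
miR-145, 3 nt later: cAGUUUUCccaggaaucccu
The first had 262 reads during the dry period and 127 at peak lactation, the second 169 and 62, the third 129 and 82, and those of miR-145 22 and 9 for the start 1 nt later and 27 and 4 for that 3 nt later. Over all tags, these 2 starts of miR-145 had 50 and 58 reads during the dry period and 15 and 11 at peak lactation. No single one of the other starts of miR-143 exceeded 0.402% of the arm in either library. The partner arm of miR-143 began at position 22 of the precursor in 99.96% of its reads during the dry period and 99.9% at peak lactation. That of miR-145 began at position 56 in 94.3% and 93.4%, with 3.79% and 4.11% starting 2 nt earlier.

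Tags of the listed length with 1 base that differed from the listed sequence in positions 1 to 18, counted from the 5′ end, were set against identical reads. They made up 3.45% (3.29 to 3.62) for miR-143 during the dry period and 3.25% (3.05 to 3.46) at peak lactation, and 3.12% (2.86 to 3.41) and 3.58% (2.92 to 4.39) for miR-145. Within each miRNA the intervals of the 2 libraries overlapped. The most frequent was A3G for miR-143, at 0.304% during the dry period and 0.325% at peak lactation, and A18C for miR-145, at 0.517% and 0.855%.

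miRNAs with the most similar change were named by the smallest difference in log2 ratio from each member, among the other miRNAs with at least 1000 reads in both libraries. This likeness rests on 2 libraries and is a description. Nearest to miR-143 (-0.86) were miR-30a-5p with -0.84, miR-148b with -0.90 and miR-1, which is known from heart and skeletal muscle, with -0.90. Nearest to miR-145 (-2.76) were miR-25 with -2.75, miR-128 with -2.72 and miR-181b with -2.84. On the scale of all conserved miRNA reads, all 3 values beside miR-143 turn positive, as that of miR-143 does.

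miRNAs known from other cell types of the gland were set beside the pair, on the scale of clean reads, on which 70.4% of all 257 miRNAs were lower past the limit and 1.17% higher. The counts below are read against these shares, and 4 of 5, 7 of 9, 6 of 9 and 4 of 7 lower members are shares near the background. All 5 striated muscle miRNAs (miR-1, miR-133a, miR-133b, miR-206 and miR-499) lay between the mates. So did most of the 257 miRNAs, of which 32 had a lower ratio than miR-145 and 56 a higher one than miR-143. Of the 5, 4 were lower past the limit, with a median log2 ratio of -1.33 and a range of -2.60 to -0.90. Their summed level was 7299 RPM during the dry period and 3874 RPM at peak lactation, nearly all of it miR-1 (106563 and 60258 reads). The ratios of miR-133a, which is the median, and of miR-133b rest on few reads, 50 and 21 and 21 and 6. Of the 9 miRNAs known from fibroblasts and other stroma 7 were lower past the limit, with a median of -1.88, a range of -2.96 to -0.68 and summed levels of 15278 and 3538 RPM. Among them only miR-199a-3p, with -2.96, had a lower ratio than miR-145. Of the summed levels, miR-199a-3p alone gave 9963 and 1284 RPM, and the others together gave 5315 and 2254 RPM.

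The 9 epithelial miRNAs, the miR-200 family, miR-205 and the miR-183 cluster, had a median log2 ratio of -1.35 and a range of -4.42 to -0.09. Of these, 6 were lower past the limit, and the summed levels were 2732 and 1345 RPM. The low end of the range rests on few reads, 101 during the dry period and 5 at peak lactation for miR-183 and 75 and 4 for miR-96. Of the 7 leukocyte miRNAs 4 were lower past the limit, with a median of -1.01 and summed levels of 1811 and 1462 RPM. miR-146b alone gave 1300.2 and 1276 RPM of these sums, and the other 6 gave 511 and 186 RPM. The 2 endothelial miRNAs, miR-126 and its partner strand, had log2 ratios of -0.74 and -0.21, with summed levels of 129 and 81.4 RPM, and 0 were past the limit. Of the 3 red blood cell miRNAs 2, miR-451 and miR-144, were higher past the limit (1.07 and 1.06), with summed levels of 110 and 190 RPM. On the scale of all conserved miRNA reads, 36.2% of all miRNAs were higher past the limit. All of these medians stood against -1.44 for the 257 miRNAs, and the part of any of these cell types in the change of miR-143 or miR-145 was not tested.

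Other clustered mates were compared in the same way. The 21 pairs chosen for this do not cover every cluster, and 13 of them had at least 100 reads of each mate in both libraries. The difference of 1.90 between miR-143 and miR-145 had the largest size of these 13, followed by 1.80 (1.74 to 1.85) for miR-99a and let-7c and 1.28 (1.09 to 1.46) for miR-106b and miR-93. The remaining 10 pairs differed by at most 0.47 in size, the value for miR-221 and miR-222, and the median size over the 12 other pairs was 0.30. The miR-451 and miR-144 pair differed by 0.02 (-0.23 to 0.26). Among cluster mates outside the 21 pairs, let-7e had a log2 ratio of -3.26, beside -1.48 for miR-99b and -1.41 for miR-125a. miR-181b had -2.84 beside -1.02 for miR-181a. Others were close, such as miR-532 with -1.67 and miR-660 with -1.68. The rank of 1.90 and the median of 0.30 thus hold for the chosen pairs alone.

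**Figure D5:**
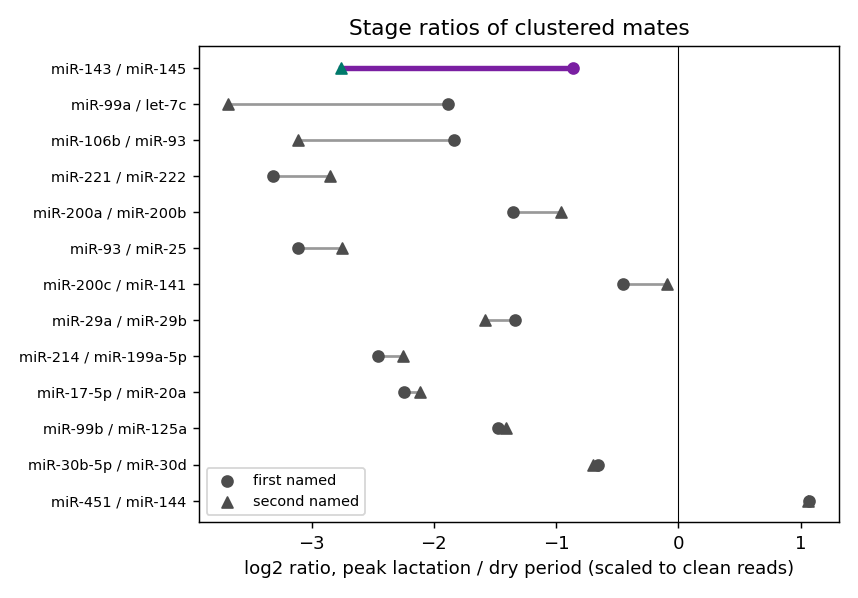
The log2 ratio of peak lactation over dry period, scaled to clean reads, for 13 pairs of clustered miRNAs, with the first named mate as a circle and the second as a triangle joined by a line. The line of miR-143 and miR-145 is the longest (1.90), and its length does not depend on the scaling, although scaling to all conserved miRNA reads would move every point 2.08 to the right.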

How the data were processed

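The authors sequenced small RNA of 1 pool of 3 goats per stage, removed low-quality reads, adaptor artefacts, poly(A) reads and reads below 18 nt, and deposited each remaining tag with its count of clean reads, without normalization or alignment. CASAVA is named in the submitters' processing notes. Listed miRNAs and goat precursors were taken from the study's supplement, as sequences only. Counts were divided by clean reads. As in the study, a count of 0 was set to 0.01 RPM, and a miRNA needed 1 RPM or more in one of the libraries. Shares and single log2 ratios carry 95% Wilson intervals, and differences of log2 ratios Woolf intervals. Partner arms and 5′ starts were counted within 5 nt of the leading start. The members and lists were chosen with earlier results of these data known. The text names both members, their classes of ends with the 3 leading tags or more, and the 3 miRNAs nearest to each. Scalings used edgeR 4.0.16 and DESeq2 1.42.0 in R 4.3.3, and the rest Python 3.11.15, scipy 1.17.1 and matplotlib 3.10.9. Counting and intervals were tested on simulated data. Alternatives covered counting rules, scalings and filters. Depth was 14851375 and 15712891 clean reads.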

Additional observations from a re-analysis of the deposited data

How the results depend on the processing

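For miR-143 the log2 ratio was -0.86 by clean reads and turned positive when divided by all conserved miRNA reads (1.23) or those without let-7 and miR-98 (0.27), and with TMM factors (0.44) or DESeq2 size factors (0.54). Divided by reads of 21 to 23 nt it was -0.027. On the same 5 scales miR-145 gave -0.67, -1.62, -1.46, -1.36 and -1.93, the number of miRNAs lower past the limit was 19, 67, 52, 47 and 95 instead of 181, and the number higher 93, 13, 23, 30 and 9 instead of 3. Identical tags alone gave -0.80 for miR-143 and 1.96 for the difference of the mates, and an anchored stretch of 20 nt gave -0.83 and 1.95. Counting each unique tag once gave -0.62 for miR-143, -1.54 for miR-145 and 0.92 for their difference. Among tags that match the precursor over their whole length, the listed end held 49.5% and 53.7% of miR-143 and 36.9% and 38.04% of miR-145 during the dry period and at peak lactation, as tailed reads leave the total. With such tags, an alternative chosen after seeing the data, the partner arms differed by 0.16 (-0.02 to 0.34) and miR-145-3p exceeded miR-145 by 1.51. Counting names that share all tags once, also chosen after seeing the data, gave 177 lower and 3 higher. These and all other values, 30 in total, stayed within the counting interval or within 1.5 times the count. No paired analysis was possible because each stage has 1 library. Neither depth nor these intervals limit the spread between goats, which 1 pooled library per stage does not show.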
